A study of Mus musculus with 10 samples.

Results

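The 36 genes described here are among the longest in the mouse genome and code mostly for neuronal adhesion and signalling proteins. They were chosen by name, as genes with long introns of a class known to depend on TDP-43, and matched by symbol to mouse Ensembl identifiers; all 36 were found among the 22024 genes of the count table. TDP-43 is a nuclear RNA-binding protein that binds stretches rich in UG, many of them deep in long introns, and keeps cryptic exons out of the messenger RNA. Loss of TDP-43 from the mouse nervous system is known to lower the RNA of many genes with very long introns, most of them used at synapses. The proteins of the set act where cells touch: synaptic organisers such as neurexins, neuroligins and receptor phosphatases bind partners across the synaptic cleft, IgLON proteins and contactins sit on axons, and cadherins and catenins build cell junctions.

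PolyA RNA of the lumbar spinal cord was sequenced from 10 female mice aged 3 months, with 1 library per animal. The WT group (n = 2, animals 8 and 10) carried the human TARDBP gene, which codes for TDP-43, as a genomic bacterial artificial chromosome (BAC) placed at Rosa26 by PhiC31 integrase in IDG26.10-3 embryonic stem cells, and the M337V group (n = 5, animals 1, 2, 3, 7 and 9) the same BAC with the ALS-linked M337V change. The NTg group (n = 3, animals 4, 5 and 6) was nontransgenic C57BL/6. Animals of all groups keep the mouse Tardbp gene, controls were littermates of the same age, and the lines had been backcrossed to C57BL/6J for at least 3 generations. Each construct is represented by a single line, and the labels do not say whether the animals sequenced were heterozygous or homozygous for the BAC. The human gene is carried as genomic sequence, and the labels name no other promoter driving it. The comparison of WT with NTg asks what the human transgene does, that of M337V with WT what the mutation adds, and that of M337V with NTg takes both together. The first and last of these use the same 3 NTg libraries.

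Libraries held 18724888 to 21041474 counts. Human TARDBP stood at 114 to 141 CPM (counts scaled to library size, with TMM factors) in the 7 libraries labelled WT or M337V, at 0.0493 CPM in NTg 5 and at 0.186 CPM in NTg 6. The library labelled NTg 4 held 118 CPM of it (2415 counts) and so goes against its label; it is called NTg 4 below only by that label. Mouse Tardbp ran from 228 to 280 CPM over the 10 libraries, without a change that passed the test. All 15 general neuron markers were measured in every group, with summed levels of 11778 to 13211 CPM in NTg, 12874 to 14327 CPM in WT and 11875 to 13879 CPM in M337V. The sum of 11 posterior Hox genes, which mark the caudal cord, was 12.6 CPM in WT 8 and 38.8 CPM in M337V 3, against 117 to 224 CPM in the other libraries. NTg 4 was highest in Schwann cell markers (1692 CPM, against 67.7 to 1082 CPM elsewhere) and NTg 6 in skeletal muscle markers (881 CPM, against 14.0 to 560 CPM elsewhere). Because NTg 4 and WT 8 stand apart, the counts of members called are also given without them.

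The members are set apart by their length. Their spans from first to last base ran from 724 kb (Dpp10, which steers potassium channels) to 2271 kb (Ptprd), with a median of 1139 kb, where the median of the tested genes was 25.0 kb. All 36 exceed 700 kb, a length that 115 of the tested genes reach (0.759%), and 33 are among the 100 longest genes tested. The difference lies in the introns: the longest intron had a median of 461 kb in the members and 8.02 kb in the tested genes, whereas the median length of the spliced transcript was 6549.5 bases in the members and 3169 bases over all. Nrg1, which codes for the growth factor neuregulin 1, holds the longest single intron of the set (915 kb), and Dab1, the adaptor of Reelin signalling, the shortest (126 kb). No exon of a member overlaps an exon of another tested gene in the annotation (GENCODE M21, build GRCm38).

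TDP-43 favours UG repeats, so the spliced transcripts were searched for runs of at least 6 TG units (TGTGTGTGTGTG, sense strand only, 1 transcript per gene). Such a run was found in 6 of the 36 members (16.7%) and in 1120 of 15149 tested transcripts (7.39%). Among transcripts of 3000 to 10000 bases the shares were 2 of 24 members (8.33%) and 10.6% of 7751 genes. Of the 9 runs in members, 8 lay in a 3′ UTR. Cadm2, one of the members that rose, holds 3 runs in the annotated 3′ UTR, of 24, 7 and 6 units. Among members that did not pass, the 3′ UTR holds a run of 22 units in Csmd1, 15 in Ptprt and 11 in Dpp10. That of Nrg3 holds runs of 20 and 6 units, and Lrp1b holds a run of 6 units in its coding part. The sites of Cadm2 and Dpp10 and the shorter site of Nrg3 are shown, because such runs are the kind of stretch TDP-43 is known to bind. The run of 24 units is shown by 30 of its bases. Capitals mark the repeat, all lie on the minus strand, and positions are those of GRCm38. A match is a description of the letters only, and introns were not searched.
Cadm2, chr16:66659940-66659969: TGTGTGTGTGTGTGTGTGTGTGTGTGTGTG
Cadm2, chr16:66659868-66659887: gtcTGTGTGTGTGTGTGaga
Cadm2, chr16:66659783-66659800: gcgTGTGTGTGTGTGtat
Dpp10, chr1:123329450-123329477: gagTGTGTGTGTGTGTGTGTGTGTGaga
Nrg3, chr14:38369638-38369655: gcaTGTGTGTGTGTGtta

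All 36 members passed the filter on low counts, with 49 counts (Immp2l) to 12591 counts (Ptprd) in a library. Between genes, levels are compared per length, as reads per kilobase of merged exon, scaled to library size (RPKM, mean over the 10 libraries). Pcdh9, a protocadherin of neurons and of oligodendrocytes, was highest at 42.3 RPKM, followed by Lsamp at 29.9 RPKM, Cadm2 at 24.9 RPKM, Ptprd at 24.7 RPKM and Nkain2 at 23.9 RPKM. Neighbours in that order among the last 3 differ by less than the SD over libraries (2.64 RPKM for Cadm2, 3.38 RPKM for Ptprd and 4.10 RPKM for Nkain2). At the low end stood Csmd1 at 1.47 RPKM, Cntn5 at 1.22 RPKM and Sgcz at 1.15 RPKM. The set together took 0.378% to 0.419% of each library's counts.

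In M337V cord 4 of the 36 members rose against NTg and 0 fell (edgeR quasi-likelihood test, Benjamini-Hochberg adjusted p below 0.05). The background was 4.29% of 15191 tested genes called in either direction, 2.67% called higher and 1.61% called lower, against 11.1% of the members called higher. The 4 were Ptprd, Cadm2, Pcdh9 and Nkain2. In WT cord the same 4 and Il1rapl1 rose, 5 members in all (13.9%), and 0 fell, where 5.64% of all genes were called, 3.59% higher and 2.05% lower. The members were chosen with earlier results of these data known, so their shares are not those of an independent list. In M337V against WT 0 members passed, as did 0 of 15191 genes (0%). The tissue is a mixture of cells, so fewer cells of a type and less RNA per cell cannot be told apart, nor can more of either.

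Across the set the differences were small. The median log2 difference of the 36 members was 0.05 in M337V against NTg, beside -0.01 over all tested genes, and single members ran from -0.26 to 0.45. In WT against NTg the median was 0.08 beside -0.02, with a range of -0.34 to 0.54. Positive differences were found in 24 members and negative ones in 12 for M337V, and in 27 and 9 for WT. At an unadjusted p below 0.05, 9 members were higher and 4 lower in M337V (12.2% and 12.3% of all genes), and 10 were higher and 1 lower in WT (12.8% and 12.5% of all genes). DESeq2 and limma-voom also called 0 members lower in either comparison. Without M337V 7 and 9, however, edgeR called 6 members in M337V, 4 higher and 2 lower: Tenm2 (log2 -0.37, adjusted p 0.0222) and Cntnap2 (-0.27, adjusted p 0.0287). That fit also called more genes in all, 1146 of 15100 against 651 of 15191 with every library kept. Summed over the members, libraries held 3735, 3727 and 3753 CPM in NTg 4, 5 and 6, 4259 and 4154 CPM in WT 8 and 10, and 4004, 3982, 4086, 4075 and 4050 CPM in M337V 1, 2, 3, 7 and 9. Each of the 7 libraries labelled transgenic lay above each NTg library in this sum, to which Ptprd and Lsamp gave the most. Mean Ptprd was 458 CPM in NTg, 633 CPM in WT and 601 CPM in M337V, and mean Lsamp 513, 517 and 515 CPM. The sum includes the members called from these same libraries, so it is no separate evidence of a rise across the set.

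**Figure D1:**
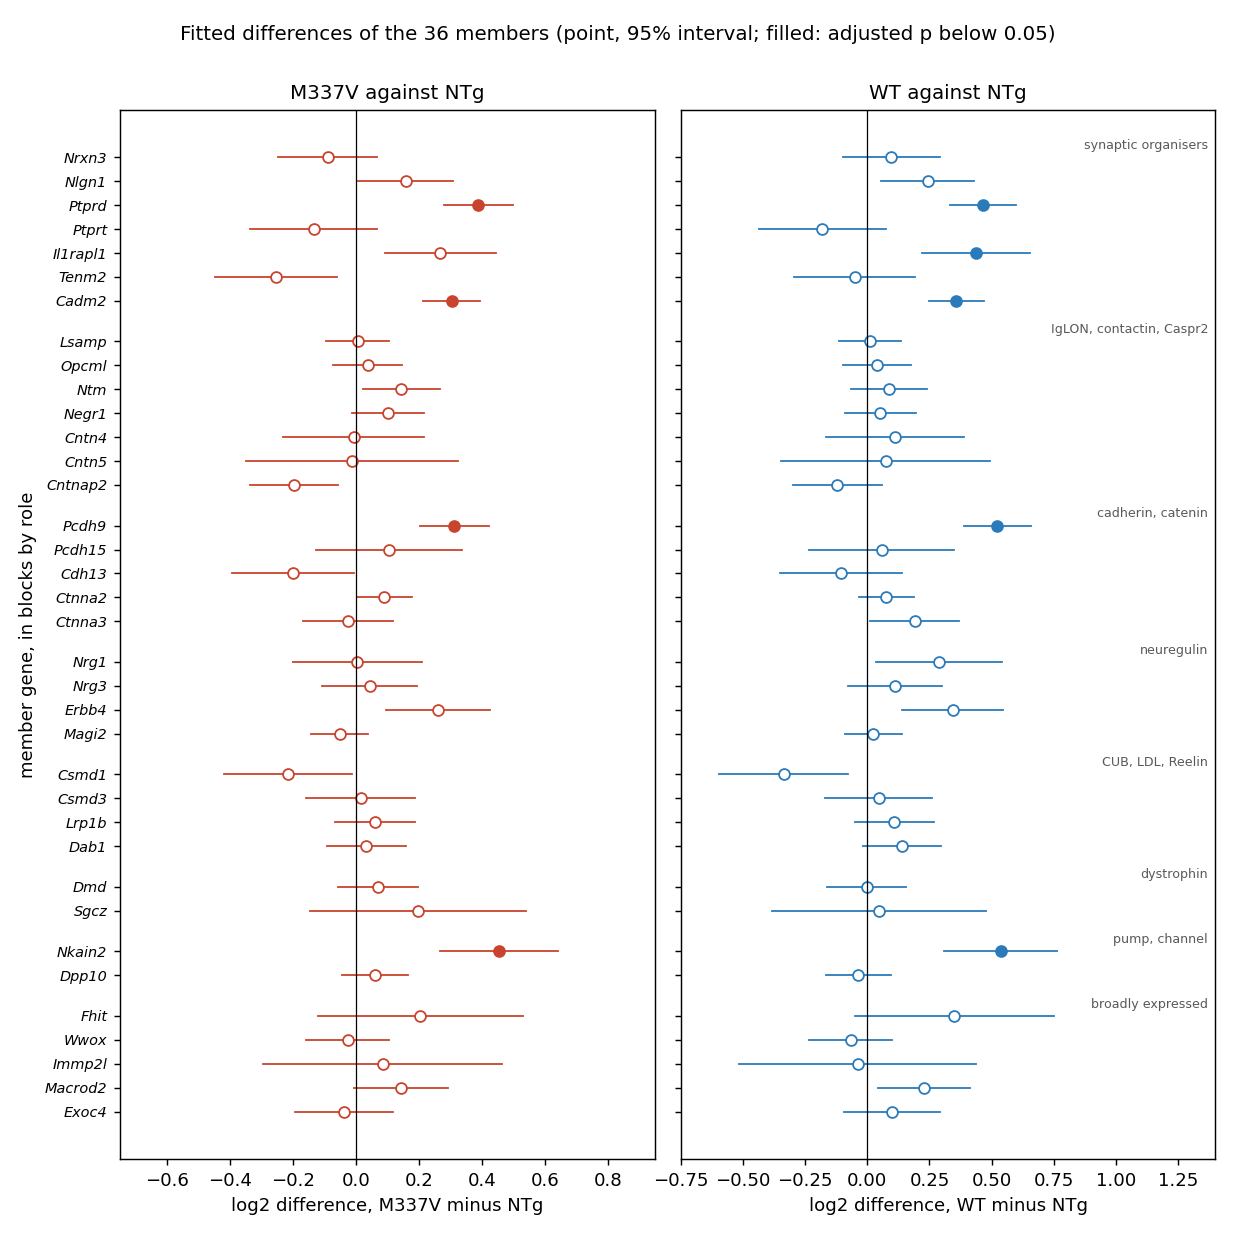
Fitted log2 differences of the 36 members (points) with 95% intervals (bars), M337V minus NTg on the left and WT minus NTg on the right, on x axes of different width; filled points passed an adjusted p below 0.05. The 4 and 5 filled points all lie to the right of 0, and most open points have intervals that include 0.

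Among the 7 synaptic organisers, 2 rose in M337V (Ptprd and Cadm2) and 3 in WT (these and Il1rapl1), with median log2 differences of 0.16 and 0.24. Ptprd codes for a receptor tyrosine phosphatase of the presynaptic side, which binds several postsynaptic partners, and lies on chromosome 4 (chr4:75941238-78211961, minus strand). It was measured at 455, 476 and 445 CPM in NTg 4, 5 and 6, at 659 and 608 CPM in WT 8 and 10, and at 609, 622, 620, 573 and 580 CPM in M337V 1, 2, 3, 7 and 9. The groups do not overlap: the lowest transgenic-labelled library, M337V 7, lay well above the highest NTg library, NTg 5. The log2 difference was 0.39 ± 0.05 (SE) in M337V, a 1.31-fold level with an edgeR adjusted p of 0.0118, and 0.47 ± 0.06 in WT, 1.38-fold with an adjusted p of 0.00804. By p it held rank 5 over all tested genes in M337V against NTg.

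Cadm2 codes for SynCAM 2, an immunoglobulin adhesion molecule of synapses and of axons in contact with myelin, and lies at chr16:66655421-67620908 on the minus strand. It held 210, 204 and 210 CPM in NTg 4, 5 and 6, 276 and 257 CPM in WT 8 and 10, and 252, 261, 260, 260 and 249 CPM in M337V 1, 2, 3, 7 and 9. Every transgenic-labelled library was above every NTg library, and the coefficient of variation over the 5 M337V libraries was 2.11%. Cadm2 rose by 0.30 ± 0.04 on the log2 scale in M337V (1.23-fold, edgeR adjusted p 0.0118) and by 0.36 ± 0.05 in WT (1.28-fold, adjusted p 0.00957).

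Il1rapl1, on the X chromosome (chrX:86740870-88115645, minus strand), codes for a postsynaptic receptor of the interleukin-1 receptor family that binds the product of Ptprd. It was measured at a low level, with 12.8, 12.9 and 13.7 CPM in NTg 4, 5 and 6, 16.7 and 18.8 CPM in WT 8 and 10, and 14.3, 16.7, 16.9, 16.3 and 14.9 CPM in M337V 1, 2, 3, 7 and 9. All transgenic-labelled libraries lay above all NTg libraries, M337V 1 and NTg 6 being the closest pair. The difference passed in WT (log2 0.44 ± 0.10, edgeR adjusted p 0.0303) and did not in M337V (0.27 ± 0.08, adjusted p 0.0753). The difference between M337V and WT, tested directly, did not pass either (log2 -0.17 ± 0.09, adjusted p 0.779).

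The other 4 organisers did not pass. Tenm2, a teneurin that binds latrophilins, held 43.9, 38.5 and 45.1 CPM in NTg 4, 5 and 6, 41.2 and 40.9 CPM in WT 8 and 10, and 33.6, 32.1, 32.8, 41.9 and 37.6 CPM in M337V 1, 2, 3, 7 and 9. M337V 1, 2 and 3 lay below every other library, while M337V 7 and 9 overlapped or neared the NTg range (log2 -0.26 ± 0.09 against NTg, edgeR adjusted p 0.107). Without M337V 7 the adjusted p was 0.0418, so this call turns on 1 library. Nlgn1, the neuroligin of excitatory synapses, had a log2 difference of 0.16 ± 0.07 in M337V (adjusted p 0.182) and of 0.24 ± 0.09 in WT (adjusted p 0.103). Ptprt, a receptor phosphatase that binds its own kind on facing membranes, had -0.13 ± 0.09 and -0.18 ± 0.12. Nrxn3, a presynaptic neurexin and the partner of neuroligins, stood at -0.09 ± 0.07 in M337V and 0.10 ± 0.09 in WT.

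**Figure D2:**
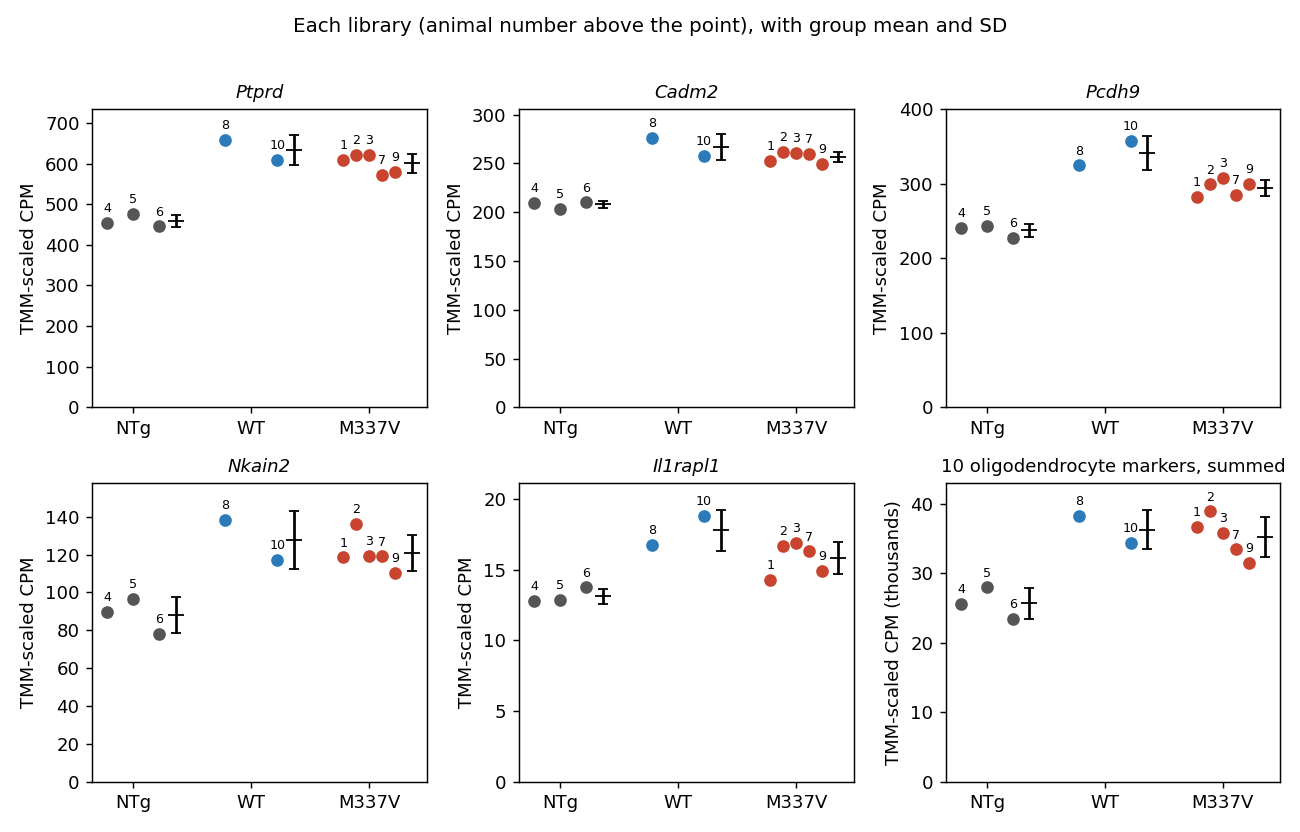
TMM-scaled CPM of the 5 members that passed in either comparison, and the summed CPM of 10 oligodendrocyte markers, in each library; points are animals, numbered, and black marks give the group mean and SD. In every panel the 7 libraries labelled WT or M337V lie above the 3 NTg libraries, and the WT and M337V points overlap in all but the Pcdh9 panel.

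The protocadherin Pcdh9 rose in both comparisons, the only one of 5 cadherin and catenin members to do so. It lies at chr14:93013410-93890679 on the minus strand and held 241, 244 and 228 CPM in NTg 4, 5 and 6, 325 and 358 CPM in WT 8 and 10, and 283, 299, 308, 285 and 300 CPM in M337V 1, 2, 3, 7 and 9. The order was NTg below M337V below WT, without overlap. Against NTg the log2 difference was 0.31 ± 0.05 in M337V (1.24-fold, edgeR adjusted p 0.0156) and 0.52 ± 0.06 in WT (1.44-fold, adjusted p 0.00549). Between M337V and WT it was -0.21 ± 0.06, with an unadjusted p of 0.00283 and an adjusted p of 0.625, so that gap did not pass over all genes.

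Of the rest of the junction proteins, Ctnna2, the alpha-catenin of neurons, held 135 to 142 CPM in NTg, 145 to 147 CPM in WT and 143 to 152 CPM in M337V. The transgenic-labelled libraries lay above the NTg ones by a small margin (log2 0.09 ± 0.04 in M337V, edgeR adjusted p 0.194). Cdh13, a cadherin tied to the membrane by a lipid anchor, had -0.20 ± 0.09 in M337V (adjusted p 0.192) and -0.10 ± 0.11 in WT. Pcdh15, known from the tip links of hair cells and found in oligodendrocyte precursors, had 0.11 ± 0.11 and 0.06 ± 0.13. Ctnna3, a further alpha-catenin, was level with NTg in M337V (-0.03 ± 0.07) and stood at 0.19 ± 0.08 in WT (adjusted p 0.169).

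Nkain2, from the pair of members that accompany pumps and channels, showed the largest fitted difference of the set in both comparisons. It codes for a membrane protein that interacts with the sodium pump, is expressed in neurons and in oligodendrocytes, and lies at chr10:31689310-32890462 on the minus strand. Its level was 89.7, 96.8 and 77.9 CPM in NTg 4, 5 and 6, 139 and 117 CPM in WT 8 and 10, and 119, 136, 119, 119 and 110 CPM in M337V 1, 2, 3, 7 and 9. NTg 6 was the lowest of all libraries, and the highest NTg library, NTg 5, lay below the lowest M337V library, M337V 9. The log2 difference was 0.45 ± 0.09 in M337V (1.37-fold, edgeR adjusted p 0.0235) and 0.54 ± 0.10 in WT (1.45-fold, adjusted p 0.0198). Its counterpart Dpp10, an accessory protein of Kv4 potassium channels, did not pass, at 0.06 ± 0.05 and -0.04 ± 0.06.

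The promoters of the members that rose are shown to let their starts be compared (RefSeq, GRCm38.p6, minus strand, 250 bases before to 50 bases after the start). The table held a promoter for 28 of the 36 members, 44 in all, and Ptprd was not among them. Capitals mark CG dinucleotides, which are dense in CpG islands; CG reads the same on both strands. The 300 bases hold 15 CG in Cadm2, 18 in Pcdh9, 43 in Nkain2 and 7 in Il1rapl1, against a median of 14 over the member promoters and of 7 over 32851 promoters. Pcdh9 has a further, overlapping promoter entry (chr14:93890620-93890919) with 19 CG, which is not shown. Of all promoters, 97.8% hold no more CG than that of Nkain2, 67.0% no more than that of Cadm2 and 51.4% no more than that of Il1rapl1, so the starts of these members differ widely in CG content.
Cadm2, chr16:67620859-67621158: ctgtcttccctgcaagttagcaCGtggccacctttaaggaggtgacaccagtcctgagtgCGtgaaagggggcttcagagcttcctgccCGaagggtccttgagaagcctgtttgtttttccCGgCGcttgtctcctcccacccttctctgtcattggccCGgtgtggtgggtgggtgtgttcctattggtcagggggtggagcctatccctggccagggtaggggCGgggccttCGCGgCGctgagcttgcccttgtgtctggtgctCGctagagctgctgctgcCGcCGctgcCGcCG
Pcdh9, chr14:93890630-93890929: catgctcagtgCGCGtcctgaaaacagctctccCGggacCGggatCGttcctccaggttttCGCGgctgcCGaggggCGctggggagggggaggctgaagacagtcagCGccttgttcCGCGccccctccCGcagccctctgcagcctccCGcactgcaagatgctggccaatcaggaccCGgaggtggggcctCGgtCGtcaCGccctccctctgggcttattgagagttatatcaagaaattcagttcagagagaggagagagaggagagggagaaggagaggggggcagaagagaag
Nkain2, chr10:32889866-32890165: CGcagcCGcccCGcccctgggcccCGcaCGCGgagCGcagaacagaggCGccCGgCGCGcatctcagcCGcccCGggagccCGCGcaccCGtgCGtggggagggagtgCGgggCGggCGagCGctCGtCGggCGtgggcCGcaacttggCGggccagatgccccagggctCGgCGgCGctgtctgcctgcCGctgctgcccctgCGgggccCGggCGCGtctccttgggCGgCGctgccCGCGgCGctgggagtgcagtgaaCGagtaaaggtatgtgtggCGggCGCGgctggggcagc
Il1rapl1, chrX:88115899-88116198: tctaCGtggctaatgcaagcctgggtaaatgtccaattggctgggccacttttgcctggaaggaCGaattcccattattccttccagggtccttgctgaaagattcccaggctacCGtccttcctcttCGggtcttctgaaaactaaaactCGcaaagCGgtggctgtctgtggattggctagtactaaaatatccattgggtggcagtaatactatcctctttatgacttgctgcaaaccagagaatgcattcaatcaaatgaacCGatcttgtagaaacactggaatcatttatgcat

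The 7 IgLON proteins, contactins and Caspr2 gave 0 calls in any comparison, with median log2 differences of 0.01 in M337V and 0.05 in WT. Lsamp, the limbic system-associated membrane protein, had the smallest difference of the 7 in WT and held 521, 502 and 517 CPM in NTg 4, 5 and 6, 537 and 498 CPM in WT 8 and 10, and 517, 487, 517, 533 and 523 CPM in M337V 1, 2, 3, 7 and 9. Its 95% interval ran from -0.09 to 0.11 in M337V against NTg, a range that holds no change as large as those of the members that rose. Cntnap2 codes for Caspr2, which gathers potassium channels beside the nodes of myelinated axons, and is the only member that was lower in all 7 transgenic-labelled libraries than in all 3 NTg libraries. It held 133, 133 and 145 CPM in NTg 4, 5 and 6, 126 and 126 CPM in WT 8 and 10, and 114, 107, 119, 132 and 125 CPM in M337V 1, 2, 3, 7 and 9. The log2 difference of -0.20 ± 0.06 in M337V had an edgeR adjusted p of 0.0929, and that of -0.12 ± 0.08 in WT one of 0.388.

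The lipid-anchored Ntm (neurotrimin) and Negr1, both of which shape the outgrowth of neurites, had log2 differences of 0.14 ± 0.06 and 0.10 ± 0.05 in M337V and of 0.09 ± 0.07 and 0.05 ± 0.07 in WT. Ntm was higher in each M337V library (166 to 179 CPM) than in each NTg library (151 to 162 CPM), yet its adjusted p was 0.141. Opcml, Cntn4 and Cntn5 had differences of -0.01 to 0.04 in M337V and of 0.04 to 0.11 in WT. Cntn5 is measured by 91 to 136 counts per library, and its interval of -0.35 to 0.33 in M337V leaves room for changes as large as that of Cadm2.

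None of the 4 genes of neuregulin signalling passed. Erbb4, the receptor tyrosine kinase that neuregulins bind, came closest: it held 86.1, 83.1 and 82.8 CPM in NTg 4, 5 and 6, 115 and 97.9 CPM in WT 8 and 10, and 104, 101, 91.4, 114 and 93.5 CPM in M337V 1, 2, 3, 7 and 9. All transgenic-labelled libraries were above all NTg libraries, with a wide spread among them. The log2 differences were 0.26 ± 0.08 in M337V (edgeR adjusted p 0.0687) and 0.34 ± 0.09 in WT (adjusted p 0.0531), and DESeq2 put both past the threshold (adjusted p 0.0167 and 0.00895). DESeq2 called 1488 and 1702 of 15191 genes in these comparisons, where edgeR called 651 and 857. By limma-voom Erbb4 passed in M337V (adjusted p 0.0340) and did not in WT. Its ligands stood at 0.00 ± 0.09 (Nrg1) and 0.04 ± 0.07 (Nrg3) in M337V, and at 0.29 ± 0.12 and 0.11 ± 0.09 in WT. Magi2, a scaffold of synapses that holds receptors in place, had -0.05 ± 0.04 and 0.02 ± 0.05.

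The large receptor-class proteins and the Reelin adaptor gave 0 calls among 4. Csmd1, a membrane protein with CUB and sushi domains that restrains complement, held 33.3, 29.0 and 32.4 CPM in NTg 4, 5 and 6, 28.3 and 21.7 CPM in WT 8 and 10, and 28.3, 26.0, 24.0, 29.4 and 28.2 CPM in M337V 1, 2, 3, 7 and 9. Only M337V 7 reached into the NTg range, and the differences of -0.21 ± 0.09 in M337V and -0.34 ± 0.12 in WT had edgeR adjusted p of 0.179 and 0.103. Lrp1b, an LDL receptor of the endocytic kind, Dab1 and Csmd3 had differences of 0.02 to 0.06 in M337V and of 0.05 to 0.14 in WT. In the dystrophin complex, Dmd (dystrophin itself) had 0.07 ± 0.06 and -0.00 ± 0.07, and Sgcz (zeta-sarcoglycan) 0.20 ± 0.16 and 0.05 ± 0.20. Dmd is best known from muscle. It held 90.4 to 96.3 CPM in the NTg libraries, over which the summed skeletal muscle markers ran from 126 to 881 CPM. The part of muscle in the Dmd counts was not tested.

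The 5 broadly expressed members gave 0 calls too. Macrod2, which removes ADP-ribose from proteins, had log2 differences of 0.14 ± 0.07 in M337V and 0.23 ± 0.08 in WT (edgeR adjusted p 0.223 and 0.117). Fhit, a diadenosine hydrolase at a fragile site, had 0.20 ± 0.15 and 0.35 ± 0.18. Exoc4, of the exocyst that tethers vesicles, Wwox, an oxidoreductase at another fragile site, and Immp2l, a peptidase of the inner mitochondrial membrane, ran from -0.04 to 0.08 in M337V and from -0.07 to 0.10 in WT. Fhit and Immp2l have 100 counts or fewer in each library, and at that depth changes of the size seen in Cadm2 were not detectable in them.

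**Figure D3:**
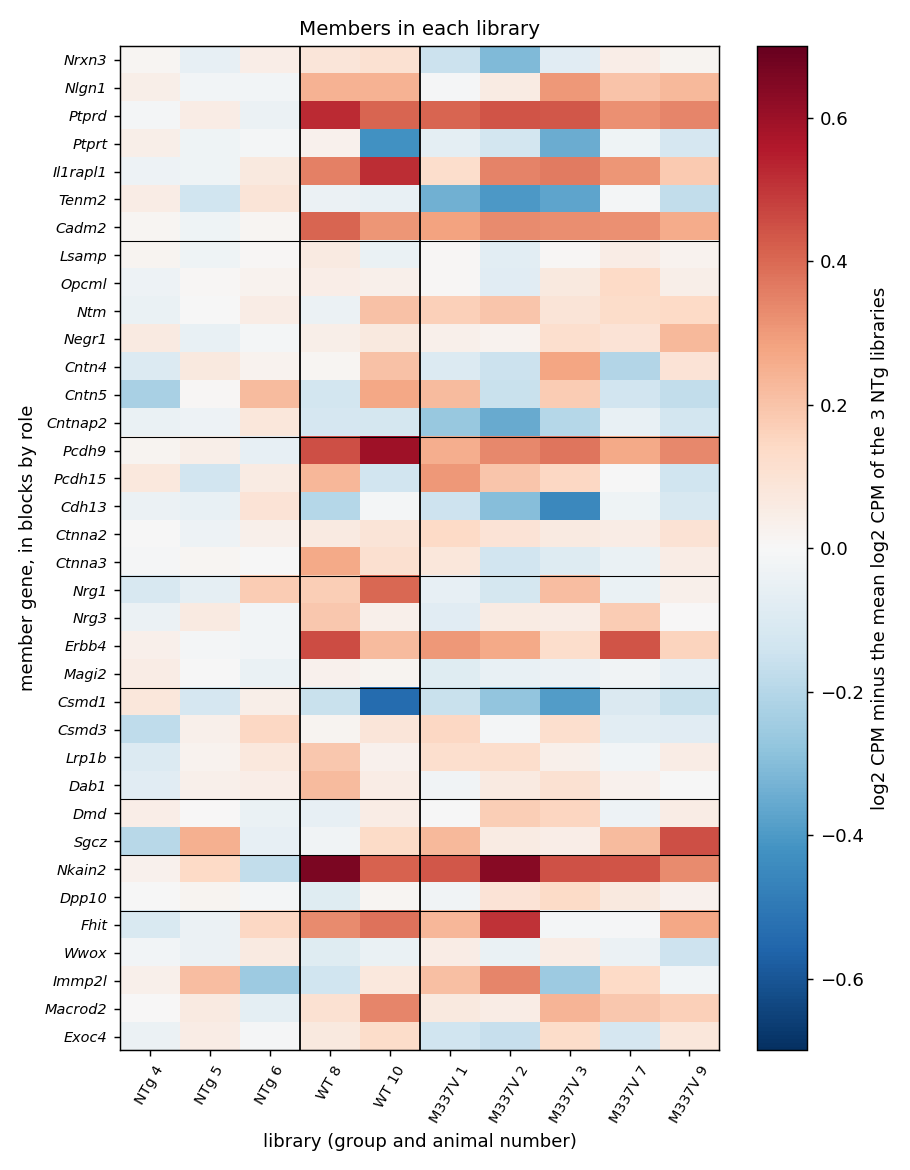
Log2 CPM of each member in each library minus its mean over the 3 NTg libraries (red higher, blue lower); columns are libraries by group and animal number, and rows are members in blocks by role. Ptprd, Cadm2, Pcdh9 and Nkain2 are red in all 7 WT and M337V columns, most other rows stay pale, and Tenm2 and Cntnap2 are bluest in M337V 1, 2 and 3. Cdh13 is bluest in M337V 3 and M337V 2, followed by WT 8 and then M337V 1.

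By position of the single libraries, 7 members lay higher in all 7 transgenic-labelled libraries than in all 3 NTg libraries: the 5 that passed, Ctnna2 and Erbb4. Over all genes that pattern was seen in 8.03%, and the opposite one, shown by Cntnap2 alone among members, in 6.37%. For M337V alone, 8 members were wholly above NTg (9.51% of all genes) and 1 wholly below (8.61%). For WT, with 2 libraries, 15 were wholly above (19.6%) and 3 wholly below (22.1%). Within M337V, the libraries of animals 1, 2 and 3, whose library names number them 10, 11 and 12, can be set against those of animals 7 and 9, numbered 5 and 7. In 5 members (Nrxn3, Tenm2, Lsamp, Cntnap2 and Cdh13) animals 1 to 3 all lay below 7 and 9, and in 3 (Ptprd, Pcdh15 and Csmd3) all above, where 14.9% and 15.8% of all genes did so. The labels call neither set a batch.

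M337V and WT were close. The median member difference was -0.08 (0.00 over all genes), 11 members were higher and 25 lower in M337V, and 0 passed by edgeR, DESeq2 or limma-voom. Of all genes, DESeq2 called 27 and limma-voom 0. At an unadjusted p below 0.05, 0 members were higher and 4 lower, where 6.66% of all genes passed, 3.55% higher and 3.11% lower: Pcdh9 (-0.21), Ctnna3 (-0.22), Nrg1 (-0.28) and Nrxn3 (-0.19). Nrxn3 held 279, 265 and 286 CPM in NTg 4, 5 and 6, 293 and 298 CPM in WT 8 and 10, and 249, 223, 261, 285 and 280 CPM in M337V 1, 2, 3, 7 and 9, so that its M337V libraries all lay below WT while M337V 7 and 9 lay within the NTg range. Wholly below WT were Pcdh9, Ctnna3, Nrxn3 and Magi2 (4.65% of all genes were), and 0 members wholly above (4.85%). With 2 WT libraries these intervals are wide: that of Ptprd ran from -0.20 to 0.05.

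Oligodendrocyte markers were higher in the same libraries, labelled WT and M337V, as the members that rose. The 10 oligodendrocyte markers summed to 25610, 27991 and 23454 CPM in NTg 4, 5 and 6, to 38263 and 34365 CPM in WT 8 and 10, and to 36652, 38937, 35804, 33460 and 31559 CPM in M337V 1, 2, 3, 7 and 9. None of the 10 was at 0, 6 rose in M337V and 7 in WT, 0 fell, and the median log2 differences were 0.38 and 0.46. In this sum, as in Nkain2 and Ptprd, NTg 6 was lowest and WT 8 and M337V 2 were highest. Cadm2 was also highest in WT 8 and M337V 2, but lowest in NTg 5. Pcdh9 was also lowest in NTg 6. In other respects Pcdh9 and Il1rapl1 ran differently within groups. Both were lower in WT 8 than in WT 10 and lowest of the M337V libraries in M337V 1. Il1rapl1 was highest of the NTg libraries in NTg 6. The 7 microglia markers were also higher (307 to 365 CPM in NTg, 392 to 417 CPM in WT and 388 to 418 CPM in M337V), with 2 called in M337V and 1 in WT. Of the general neuron markers, 0 of 15 passed in M337V and 1 in WT, with medians of -0.01 and 0.06, and the groups overlapped. Of the oligodendrocyte precursor markers 2 of 8 rose in M337V and 1 in WT, and 0 of 8 astrocyte and 0 of 5 endothelial markers passed. Markers of other tissues were lower or did not pass: 4 of 5 neutrophil markers fell in both comparisons (132 to 449 CPM in sum in NTg, 24.3 to 82.3 CPM in WT and 44.2 to 118 CPM in M337V), 2 of 7 skeletal muscle markers fell in M337V, and 0 of 7 Schwann cell, 0 of 6 meningeal and 0 of 10 tested posterior Hox genes passed. The part of these tissues in the members' values was not tested.

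With the oligodendrocyte marker score as a covariate, an alternative chosen after the data were seen, 0 members and 0 of all genes passed in either comparison with NTg. In that fit the log2 difference of Nkain2 went from 0.45 to 0.02 in M337V and from 0.54 to 0.03 in WT, and that of Ptprd from 0.39 to 0.21 and from 0.47 to 0.25. In M337V the differences in that fit were 0.27 ± 0.09 for Cadm2, 0.29 ± 0.11 for Pcdh9 and 0.31 ± 0.18 for Il1rapl1, and in WT 0.32 ± 0.11, 0.49 ± 0.13 and 0.48 ± 0.21. The standard errors of Nkain2 were 0.11 and 0.14, those of the 5 members were all wider than without the covariate, every adjusted p was at least 0.844, and whether the members differ in this respect was not tested. Since the marker sum does not overlap between NTg and the other libraries, the part of these cells and that of the transgene cannot be told apart. With the neuron marker score as the covariate, 5 members passed in M337V and 6 in WT, where 775 and 735 of 15191 genes passed in all.

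The calls depend on single libraries. In M337V, without NTg 6, 0 members and only 2 genes in all passed, with adjusted p of 0.0797 for Ptprd and Cadm2, 0.132 for Pcdh9 and 0.149 for Nkain2; the log2 differences stayed between 0.28 and 0.37. Without M337V 1, 2 and 3 together, 0 members and 3 genes passed. Nkain2 was also lost without NTg 4 (adjusted p 0.0516) and without M337V 2 (0.0580), and Cadm2 once the trends over GC content and length were removed (log2 0.16, adjusted p 0.0659). Without the library labelled NTg 4, 3 members passed in M337V and 4 in WT, where 197 and 283 of 15132 genes passed in all. Without NTg 4 and WT 8 together, the counts were 4 and 2. In WT the call of Nkain2 was lost in 6 of 15 alternatives, that of Il1rapl1 in 10 of 15 and that of Cadm2 in 3 of 15, whereas those of Ptprd and Pcdh9 held in 14 of 15. Cadm2 was lost in WT without NTg 4 and WT 8 (adjusted p 0.0568), with the GC and length trends removed (log2 0.17, adjusted p 0.0860) and with the oligodendrocyte score.

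**Figure D4:**
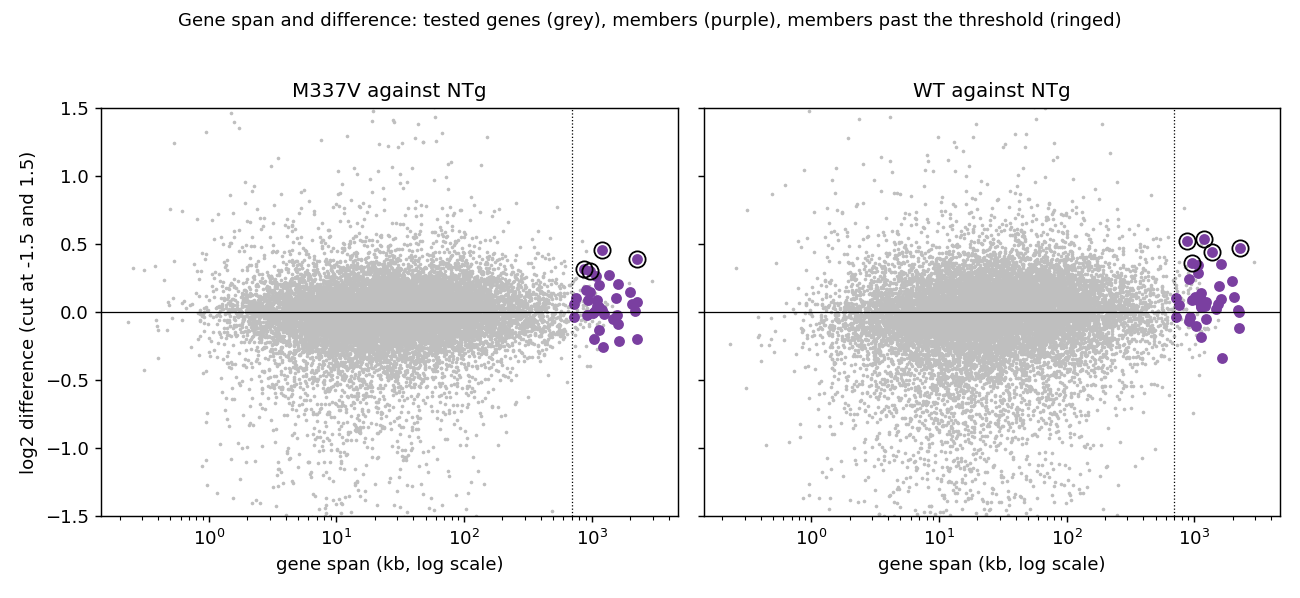
Log2 difference of each tested gene against its span from first to last base in kb (log scale), M337V against NTg on the left and WT against NTg on the right; grey points are tested genes, purple points members, rings members that passed, and the dotted line stands at 700 kb. The members fall between 724 and 2271 kb and spread on both sides of 0, with all ringed points above it.

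Other genes of this length were counted in the same way. The 79 tested genes over 700 kb that are no members had a median log2 difference of 0.01 in M337V and 0.02 in WT. Of them, 5 were called higher and 2 lower in M337V (6.33% and 2.53%), and 4 higher and 0 lower in WT (5.06% and 0%). Median differences in M337V ran from -0.03 in genes under 10 kb (3617 genes) to 0.01 at 30 to 100 kb (4379 genes) and -0.01 at 300 to 700 kb (419 genes). In WT they ran from -0.07 to 0.02 and -0.00 over the same classes. The share of genes called higher was 1.11% under 10 kb and 4.06% at 30 to 100 kb in M337V. With the trends over GC content and length removed, the median of the members was 0.05 beside 0.04 over all genes in M337V (0.05 beside -0.01 without the removal), and 0.11 beside 0.06 in WT (0.08 beside -0.02 without it).

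A list of 62 other very long genes of neurons gave 3 calls higher and 0 lower in M337V, with a median of -0.03: Dlg2 (log2 0.21), the scaffold of glutamate receptors, Fgf12 (0.28), which tunes sodium channels, and Mdga2 (0.25), which masks neuroligins. In WT Fgf12 (0.36) and Mdga2 (0.37) were called, 0 fell, and the median was -0.02. Among 67 partners and paralogs of the members, a list that shares genes with the former, 1 rose and 2 fell in M337V, and 2 rose and 1 fell in WT. Il1rap, a partner of the Ptprd product, was higher in both, with log2 differences of 0.37 ± 0.07 (edgeR adjusted p 0.0235) and 0.37 ± 0.08 (adjusted p 0.0299). Nlgn2, the neuroligin of inhibitory synapses (-0.27), and Cadm3, a binding partner of the Cadm proteins (-0.25), were lower in M337V. Vldlr, a Reelin receptor (0.30), was higher and Adgrl2, a latrophilin (-0.41), lower in WT. In M337V against WT 0 genes of either list passed. The medians of the partners were -0.00 in M337V and -0.02 in WT.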

How the data were processed

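The table the authors deposited gives, for each gene and library, a raw count of reads as a whole number, without normalisation. Per the labels' protocols, a stranded TruSeq kit was used on RNA with integrity numbers above 8. Which tool did what, the genome build, annotation and strand setting: not given in the sources used here. Among the tools in the submitters' processing notes are STAR 2.4.2a and featureCounts (Subread 1.4.6). Groups come from the genotype labels, which give no litter or batch. Each p-value sets a difference between groups against the spread between animals within groups, pooled over the groups fitted.

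Counts of all 10 libraries were fitted with edgeR 4.0.16 in R 4.3.3: filterByExpr (minimum count 10, minimum total 15; 15191 genes kept, 6833 removed), TMM scaling, a mean per group, glmQLFit and glmQLFTest, with Benjamini-Hochberg adjustment over all genes tested. Log2 differences carry their standard error and 95% interval. Names, spans and transcripts are from GENCODE M21 (GRCm38, 21774 identifiers named), which may differ from the authors' annotation. Alternatives used DESeq2 1.42.0 and limma 3.58.1 (voom), RLE size factors, no filter, a mean of 1 CPM in every group, the compared groups alone, libraries left out, removal of GC and length trends (mgcv 1.9.3), and marker scores (log2 CPM, prior count 2) as covariates. The fit was tested on simulated data.

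The members and lists were chosen with earlier results of these data known. Members that passed and, per role, up to 3 others with the smallest p in M337V against NTg were to be named with values; Nrxn3, Lsamp, Opcml, Cntn4, Cntn5, Ctnna3, Nrg1, Csmd3, Wwox and Immp2l were added after their values were seen.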

Additional observations from a re-analysis of the deposited data

Results flagged for a closer look

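Human TARDBP appeared in a control library, above the level of the other controls. NTg 4 held 118 CPM (2415 counts), NTg 5 held 0.0493 CPM and NTg 6 held 0.186 CPM, where the libraries labelled WT or M337V held 114 to 141 CPM. In the members that rose, NTg 4 lay with the other NTg libraries: Ptprd stood at 455 CPM in NTg 4 and at 476 and 445 CPM in NTg 5 and 6, and Pcdh9 at 241 CPM beside 244 and 228 CPM. These members were called with NTg 4 counted as an NTg library, so their levels cannot decide whether its label is right. Which animal the library came from was not tested. Of the 36 members, 0 had an M337V library standing apart from the other 4.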

How the results depend on the processing

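No paired analysis was possible because the groups share no animal number. Members called in M337V against NTg (4) ranged from 0 to 5 with each library left out in turn, and were 0 without M337V 1, 2 and 3, 6 (2 of them lower) without M337V 7 and 9, and 0 with the oligodendrocyte score as a covariate. Over all genes, calls in M337V against NTg were 651 in the main fit, 2 without NTg 6 and 723 without M337V 7. They were 3 without M337V 1, 2 and 3, 1146 without M337V 7 and 9, and 0 with the oligodendrocyte score. In WT against NTg they were 857 in the main fit, 258 with the compared groups alone, 215 with limma-voom and 876 with trends removed. Members called in WT against NTg (5) ranged from 3 to 4 with each library left out, and were 3 with the compared groups alone, 3 with limma-voom, 2 without NTg 4 and WT 8, 3 with GC and length trends removed, and 0 with the oligodendrocyte score. In M337V against WT every alternative gave 0. With 1 WT library left, that sample is assumed to vary like the others.

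The median in M337V against NTg (0.0521) ranged from 0.0286 to 0.0731 with each library left out. It was 0.038 with limma-voom, 0.0287 without NTg 4 and WT 8, 0.0792 without M337V 7 and 9, and 0.0865 with the oligodendrocyte score. The median in WT against NTg (0.0816) ranged from 0.0651 to 0.1066; it was 0.0953 with the compared groups alone, 0.1082 with trends removed (0.0599 over all genes), 0.0626 with the neuron score and 0.1771 with the oligodendrocyte score. The median in M337V against WT (-0.0766) ranged from -0.083 to -0.0181. It was -0.0189 without NTg 4 and WT 8, -0.0545 without M337V 1, 2 and 3, -0.0462 without M337V 7 and 9, -0.0354 with trends removed, -0.0464 with the neuron score and -0.0545 with the oligodendrocyte score. All medians kept their sign.

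Over the single members under all alternatives, 1898 values kept direction and side of the threshold, 36 lost the call, 10 gained it and 0 reversed (for single members, a change of sign counted only where a fit called the member). Those gained were Erbb4, Tenm2, Cntnap2 and, in M337V, Il1rapl1. The causes were not tested beyond leaving samples out. Members with 136 or fewer counts per library (Cntn5, Sgcz, Fhit and Immp2l) have the widest intervals.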

Other observations

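Outside the lists, further genes over 700 kb passed; they were picked out after their values were seen. Rora, a nuclear receptor, was higher in M337V (log2 0.24, edgeR adjusted p 0.0199) and in WT (0.30, adjusted p 0.0140). Fgfr2, a growth factor receptor of oligodendrocytes annotated with a span of 2961 kb, was higher by 0.23 and 0.37. Anks1b, a synaptic scaffold, was higher in M337V (0.27), and Rbms3, an RNA-binding protein, in WT (0.28). Ptprn2, a phosphatase of secretory vesicles (-0.33), and Adamtsl1, a protein of the extracellular matrix (-0.39), were lower in M337V.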
